A study of Mus musculus with 12 samples.

Results

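The genes described here are those of cholesterol and fatty acid synthesis together with the sterol sensors and transcription factors that set their output, SREBP and LXR. The list names 36 mouse genes, picked by symbol through the Entrez Gene identifiers of a table of 17571 genes. Earlier results of these data chose them, namely the difference between BX795 alone and mock and the difference between transfected libraries with low and with high interferon-stimulated genes, so values in those comparisons are a description, and a count of genes past a threshold there is not a test of them. Of the 36 genes, 34 were found in the table, and 31 passed the filter of an FPKM (fragments per kilobase of transcript, scaled to library size) of at least 1 in at least 3 of the 12 libraries. By role, 7 of the 31 act between acetyl-CoA and squalene, 10 between squalene and cholesterol, 7 in fatty acid synthesis and desaturation, 4 regulate SREBP, and 3 belong to LXR and sterol efflux. Expression of Mvd and Insig2 was not analysed here. Stard4 was listed at 0 in 11 libraries, Fads2 reached at most 0.12 FPKM, and Abcg1 stayed between 0.23 and 0.55 FPKM, so these 3 were not tested.

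RNA was sequenced from L929 cells, a fibroblast line from mouse connective tissue, in 4 groups of 3 libraries each. Mock cells received the vehicle DMSO, pEGFP-N1 cells received DMSO and a plasmid that carries EGFP behind a CMV promoter, BX795 cells received 0.5 µM BX795, and BX795 plus pEGFP-N1 cells received the same dose and the plasmid. BX795 is an inhibitor of TBK1, a kinase that acts below the DNA sensor cGAS, and is known to inhibit PDK1 as well; inhibitor or vehicle was added 1 h before transfection and cells were collected at 6 h. The labels do not say whether mock and BX795 cells received transfection reagent without plasmid, nor whether the 3 libraries of a group came from separate cultures, so the p-values below measure only the spread between these libraries.

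Cells sense sterols in the membrane of the endoplasmic reticulum, where SCAP carries the SREBP proteins and the INSIG proteins hold the complex back while sterol is plentiful. When sterol runs low, SREBP is moved to the Golgi, cut by proteases, and its freed part switches on the enzymes of sterol and fatty acid synthesis as well as Insig1, which closes the loop. LXR answers to the opposite state: oxysterols bind it and it switches on the exporters Abca1 and Abcg1.

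The stretch around the start of 3 of these genes is shown because each holds letters of a motif tied to this circuit. Sequences are RefSeq promoters of GRCm38.p6, 300 bases each, from 250 bases before to 50 bases after the start, in the direction of the gene. Capitals mark a sterol response element (TCACNCCAC) in Hmgcs1, and an E-box (CACGTG), a motif bound by SREBP-1 among other factors, in Insig1 and Abca1. The Insig1 and Abca1 stretches were chosen after their values were seen.
Hmgcs1 (chr13:119690101-119690400, plus strand): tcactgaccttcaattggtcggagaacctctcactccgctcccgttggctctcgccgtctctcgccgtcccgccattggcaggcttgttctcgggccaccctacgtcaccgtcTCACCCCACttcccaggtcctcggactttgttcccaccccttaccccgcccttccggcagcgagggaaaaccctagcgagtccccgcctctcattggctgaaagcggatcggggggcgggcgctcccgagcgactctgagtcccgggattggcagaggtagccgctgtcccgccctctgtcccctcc
Insig1 (chr5:28071162-28071461, plus strand): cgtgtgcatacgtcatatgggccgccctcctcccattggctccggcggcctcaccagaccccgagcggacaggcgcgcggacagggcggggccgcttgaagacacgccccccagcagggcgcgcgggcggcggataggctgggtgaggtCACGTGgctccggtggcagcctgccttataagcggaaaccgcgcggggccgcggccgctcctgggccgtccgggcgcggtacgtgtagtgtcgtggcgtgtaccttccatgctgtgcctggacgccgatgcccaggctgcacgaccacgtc
Abca1 (chr4:53159846-53160145, minus strand): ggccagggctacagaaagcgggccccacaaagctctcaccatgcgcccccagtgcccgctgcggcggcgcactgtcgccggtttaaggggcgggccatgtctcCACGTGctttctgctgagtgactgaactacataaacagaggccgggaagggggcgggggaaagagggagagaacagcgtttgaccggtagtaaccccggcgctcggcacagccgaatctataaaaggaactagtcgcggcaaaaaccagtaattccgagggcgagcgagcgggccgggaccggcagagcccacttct

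RefSeq promoters were found for 28 of the 36 genes and for 27025 genes in all, of which 8416 passed the filter here. The 28 include Mvd, Insig2 and Fads2, which were not tested, so they are not wholly a part of the genes past the filter. Searched on both strands, the element TCACNCCAC was in 1 of the 28, Hmgcs1, with its first base at position -137, against 1.34% of the genes past the filter and 1.44% of all. The E-box CACGTG was in 6 of 28 (21.4%), Abca1, Dhcr7, Hsd17b7, Insig1, Sc5d and Scap, against 12.2% of the genes past the filter and 8.09% of all. The CCAAT box CCAAT, bound by the SREBP partner NF-Y, was in 20 of 28 (71.4%), against 44.1% and 41.1%. The GC box GGGCGG, bound by Sp1, was in 22 of 28 (78.6%), against 69.9% and 38.2%. The LXR direct repeat, AGGTCA repeated after a gap of 4 bases, was in 0 of 28 and in 0.0148% of all genes. The first base of the E-box lay at -101 in Insig1 and at -147 in Abca1. A match here is a description of letters in this window only.

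The libraries were checked against their labels. Ifit1, an interferon-stimulated gene, had an FPKM of 0.18, 0.20 and 0.20 in mock replicates 1 to 3, whereas the pEGFP-N1 libraries had 96.7, 0 and 95.2, the BX795 libraries 0.45, 0.04 and 0.11, and the libraries with inhibitor and plasmid 92.6, 0.17 and 0.57. The library labelled pEGFP-N1 replicate 2 was thus at the level of the untransfected libraries, and the library labelled BX795 plus pEGFP-N1 replicate 1 at the level of pEGFP-N1 replicates 1 and 3. Isg15, Oasl1 and Cxcl10 split the same libraries. Errfi1, a feedback inhibitor of the EGF receptor that was lower with BX795, had an FPKM of 27.7, 24.5 and 26.1 in mock, whereas the pEGFP-N1 libraries had 18.5, 15.4 and 19.2, the BX795 libraries 14.8, 15.2 and 14.8, and the libraries with inhibitor and plasmid 18.8, 15.3 and 17.0. In Errfi1 the first of these libraries was the lowest of its group, near the BX795 libraries, and the second the highest of its own. Whether the labels of those 2 libraries were exchanged was not tested, the labels were kept, and the comparisons that use them are also given without them where a value changes. Because the interferon genes picked them out, comparisons without them are descriptions.

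All 7 fibroblast markers (Col1a1, Col1a2, Col3a1, Vim, S100a4, Pdgfrb and Fn1) passed the filter, and their summed FPKM ran from 6719 to 6957 in the mock group, from 5835 to 7004 after plasmid alone, from 6388 to 7198 after inhibitor alone and from 5575 to 6567 after both. Of 5 adipocyte markers only Fabp4 was tested, at 285 to 323 FPKM, while Cidec was at most 1.11, Adipoq at most 0.33, Plin1 at most 0.12 and Lep at most 0.02. Of 4 macrophage markers only Cd68 was tested, at 111 to 138 FPKM, with Adgre1 at most 0.04, and hepatocyte and epithelial markers summed to at most 0.51. Sequencing depth cannot be read from FPKM and is unknown here; summed FPKM over all genes was 467348 in the lowest library and 513761 in the highest. In bulk samples of this kind, fewer cells that use a gene and less RNA per cell cannot be told apart.

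In mock cells the pathway was well expressed, and FPKM, being per length, lets levels be set side by side. Fdps, which makes farnesyl diphosphate, had the highest mean of the listed genes at 149 ± 3.09 FPKM (SD, n = 3), followed by the desaturase Scd2 at 132 ± 1.13 and the lanosterol demethylase Cyp51 at 105 ± 2.73. Fasn, the fatty acid synthase, was at 70.6 ± 3.56, Acly, which makes cytosolic acetyl-CoA, at 69.6 ± 2.72, and these neighbours in the order overlapped between libraries. At the low end stood Hsd17b7 at 4.45 ± 0.339, Abca1 at 2.75 ± 0.283 and the sterol reductase Tm7sf2 at 1.97 ± 0.0666. Some of these levels are uncertain because related sequence could take reads: 43.8% of the 31-base words of Acat2 also occur in other genes, as do 33.5% for Acaca, 31.9% for Fdft1, 27.9% for Fdps, 27.1% for Idi1, 13.3% for Tm7sf2 and 13.1% for Hmgcs1 in the GENCODE transcripts of GRCm38. The 3′ part of Fdft1 overlaps Ctsb on the opposite strand, and whether the counting used strand is not given in the sources used here.

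**Figure D1:**
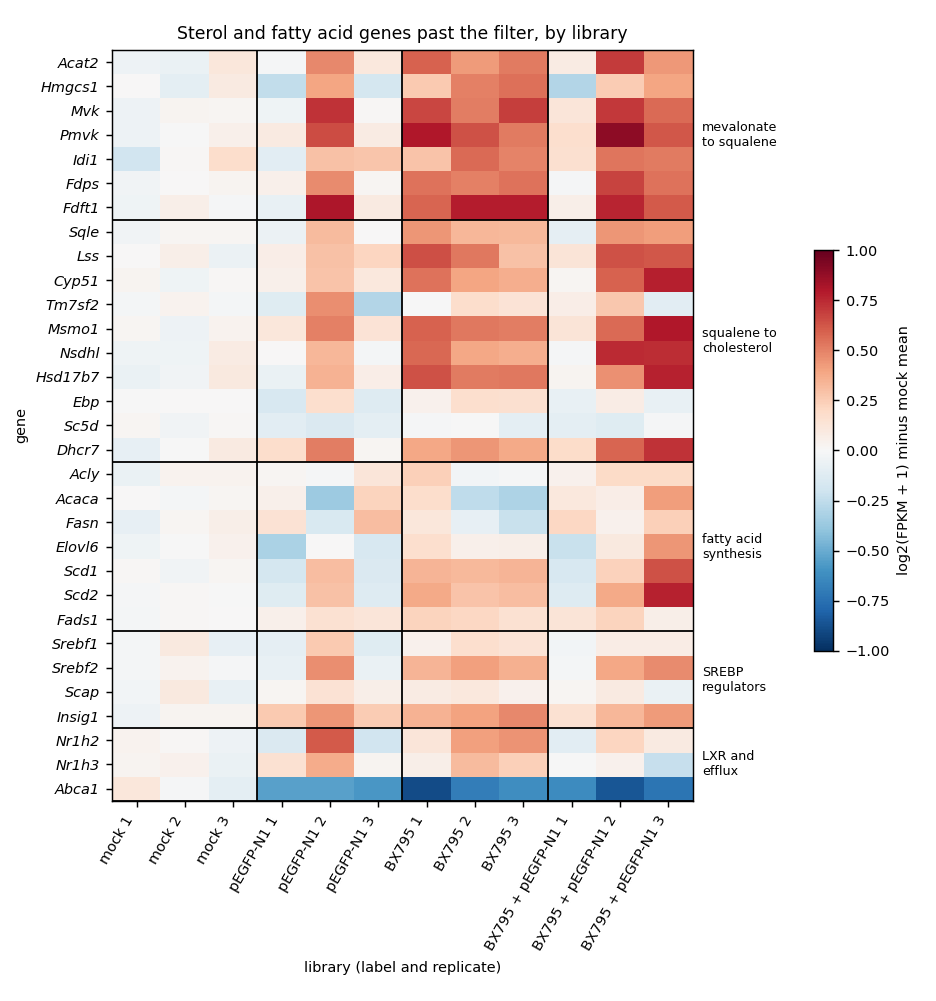
Heat map of the 31 genes past the filter (rows, grouped by role) in the 12 libraries (columns, by label and replicate), coloured by log2(FPKM + 1) minus the mean of the mock libraries. Most sterol enzymes were red in all 3 BX795 libraries, in pEGFP-N1 replicate 2 and in BX795 plus pEGFP-N1 replicates 2 and 3, near white in the other transfected libraries, and Abca1 was blue in all 9 libraries outside mock.

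BX795 alone was set against mock to see what the inhibitor did without plasmid. Higher levels were found for 27 of the 31 genes, and in 23 all 3 BX795 libraries lay above all 3 mock libraries, beside 23.6% of all 10412 genes tested. Only Abca1 lay wholly below mock, beside 16.2% of all genes. The median difference over the 31 genes was 0.37 on the log2(FPKM + 1) scale, beside 0.03 over all genes. The list was chosen on this difference, so nothing is read from these counts or from those that follow. At an adjusted p under 0.05 (limma on all 12 libraries, Benjamini-Hochberg) stood 1 of 31, Abca1, beside 0.0672% of all genes. Abca1 did not stand there with replicate number as a block (limma adjusted p = 0.065). Nor did it in 8 of the 12 fits that each left out 1 library (each mock and BX795 library and pEGFP-N1 replicates 1 and 3), with an adjusted p of 0.0525 to 0.202. In a fit of the 6 libraries of these groups alone 21 of 31 stood there, beside 20.6%, and without the 2 libraries that went against their labels again 21, beside 14.1%.

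All 7 tested genes between acetyl-CoA and squalene were separate above mock, beside 23.6% of all genes, with a median difference of 0.53. Fdft1, squalene synthase, had an FPKM of 12.8, 13.8 and 13.1 in mock and of 20.3, 23.4 and 23.4 with BX795. The groups were far apart, with a ratio of mean FPKM of 1.70 and a log2 difference of 0.72 (SE 0.21 over 12 libraries, and 0.06 over the 6 of these groups). The shared sequence and the overlap with Ctsb given above apply to these Fdft1 values too, and their part was not tested. Pmvk, phosphomevalonate kinase, went from 22.9, 23.7 and 24.6 FPKM in mock to 42.1, 37.4 and 34.5 (log2 difference 0.65, SE 0.18). For Mvk, mevalonate kinase, mock libraries had 21.6, 22.9 and 22.8 FPKM and BX795 libraries 36.1, 32.3 and 36.7 (0.62, SE 0.19). The kinases that act on mevalonate in succession thus had ratios of mean FPKM of 1.57 and 1.60. Idi1, which isomerises isopentenyl diphosphate, had 9.14, 10.7 and 12.1 FPKM in mock and 13.1, 16.1 and 15.3 with BX795, so the groups lay close but did not overlap. Hmgcs1, HMG-CoA synthase, whose promoter with its sterol response element is shown above, had 51.6, 48.0 and 54.9 FPKM in mock and 61.9, 73.3 and 75.9 with BX795 (0.44, SE 0.19). Fdps and Acat2, the latter an acetoacetyl-CoA thiolase, differed by 0.53 and 0.51.

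Of the 10 tested enzymes from squalene to cholesterol, 8 were separate above mock, beside 23.6% of all genes. The median over the 17 sterol enzymes of both steps was 0.45. Hsd17b7, a 3-ketosteroid reductase, had 4.21, 4.31 and 4.84 FPKM in mock and 7.47, 6.79 and 6.84 with BX795 (0.56, SE 0.16). Msmo1, a C4-methylsterol oxidase, had 54.6, 51.9 and 55.3 FPKM in mock and 81.8, 78.0 and 77.4 with BX795 (0.54, SE 0.15). Lss, lanosterol synthase, had 15.3, 15.9 and 14.6 FPKM against 24.5, 22.4 and 18.9 (0.49, SE 0.13). Cyp51 with 107, 102 and 106 against 154, 139 and 135 FPKM, and Nsdhl, which acts after Msmo1 in C4 demethylation, with 20.02, 19.98 and 21.9 against 31.1, 27.3 and 26.8, were apart by 0.43 and 0.44. Dhcr7 and Sqle, the last reductase of the path and squalene epoxidase, differed by 0.40 and 0.37. Enzymes of the same path were not alike in this: Ebp, a sterol isomerase, differed by 0.12, Tm7sf2 by 0.10 with overlapping groups, and Sc5d, the lathosterol desaturase, by -0.04 with overlapping groups.

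**Figure D2:**
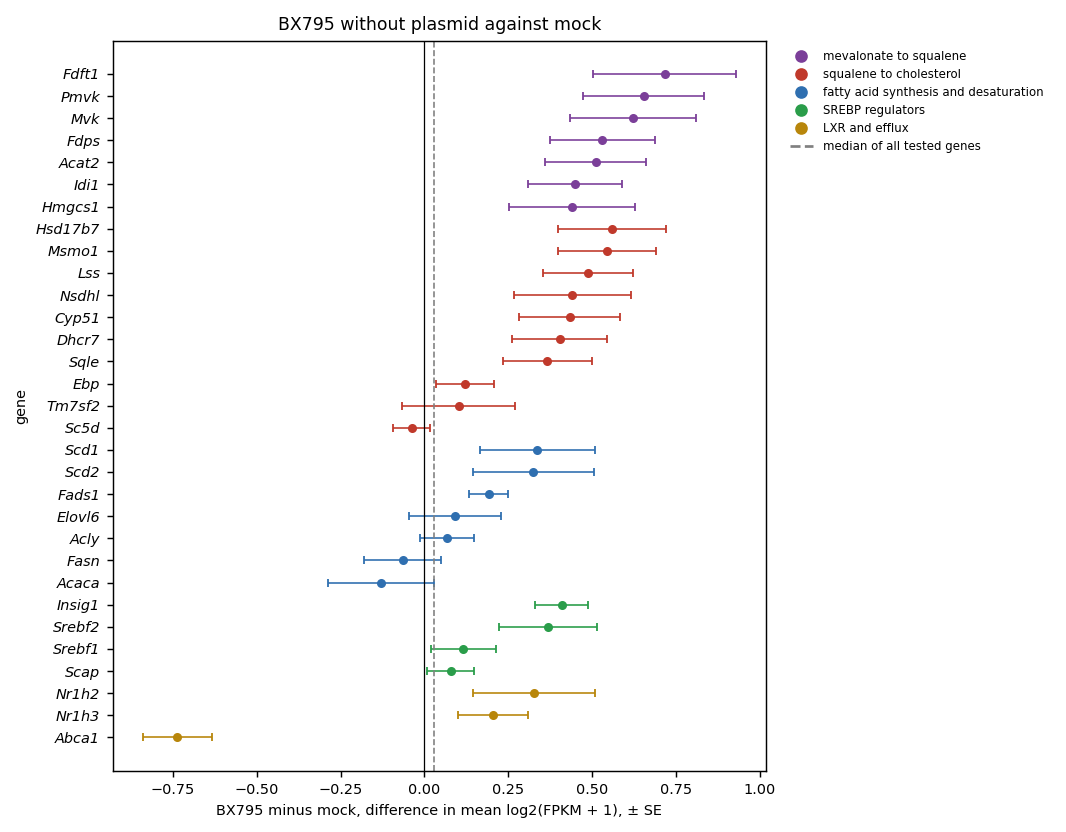
Difference in mean log2(FPKM + 1) between BX795 and mock for each of 31 genes (points, coloured by role), with bars of 1 standard error from the fit of 12 libraries and a dashed line at the median of all tested genes. Fdft1 stands at 0.72 and Abca1 at -0.74, while Fasn and Acaca lie at -0.07 and -0.13.

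The genes of fatty acid synthesis were divided. Scd2, a stearoyl-CoA desaturase, had 131, 133 and 132 FPKM in mock and 172, 161 and 164 with BX795 (0.32, SE 0.18), and its relative Scd1 had 51.4, 49.7 and 51.5 against 64.6, 64.1 and 64.8 (0.34, SE 0.17). Fads1, a desaturase of polyunsaturated chains, had 63.3, 64.7 and 64.5 against 74.9, 74.1 and 71.3 (0.19, SE 0.06). These desaturases were separate from mock, as was Elovl6, an elongase, by 0.09. The synthesis steps themselves overlapped with mock: Acly differed by 0.07, Fasn by -0.07 and Acaca, acetyl-CoA carboxylase, by -0.13. In Acaca the BX795 libraries had 19.3, 14.1 and 13.5 FPKM, the first above and the others below the mock range of 16.7 to 17.2.

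Among the SREBP regulators, the gene for the sterol-selective factor and the feedback gene differed from mock more than the others. Srebf2, which encodes SREBP-2, had 36.3, 37.7 and 36.6 FPKM in mock and 46.9, 49.2 and 47.4 with BX795 (0.37, SE 0.15). Insig1 had 58.8, 62.3 and 62.3 in mock and 77.9, 81.2 and 85.6 with BX795 (0.41, SE 0.08). In both, every BX795 library lay above every mock library. Srebf1, whose product favours fatty acid genes, had 44.7, 48.7 and 42.8 against 46.8, 51.0 and 49.9, and Scap had 14.0, 15.4 and 13.6 against 15.2, 15.5 and 14.8, with overlap in both genes.

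On the export side the direction was the opposite for Abca1, the cholesterol exporter, which had 3.05, 2.70 and 2.49 FPKM in mock and 1.01, 1.31 and 1.43 with BX795, a log2 difference of -0.74 (SE 0.10). Its mean FPKM with BX795 was 0.455 of that in mock, and the groups did not overlap. Abcg1, its partner in sterol export, was below the filter, with 0.50, 0.51 and 0.48 FPKM in mock and 0.37, 0.55 and 0.40 with BX795. The LXR genes themselves were not lower: Nr1h2, LXR beta, had 27.0, 26.5 and 25.3 FPKM in mock and 28.7, 35.1 and 36.2 with BX795, and Nr1h3, LXR alpha, had 12.4, 12.5 and 11.5 against 12.7, 15.3 and 14.5. Both were separate from mock, by 0.33 (SE 0.18) and 0.20 (SE 0.11).

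**Figure D3:**
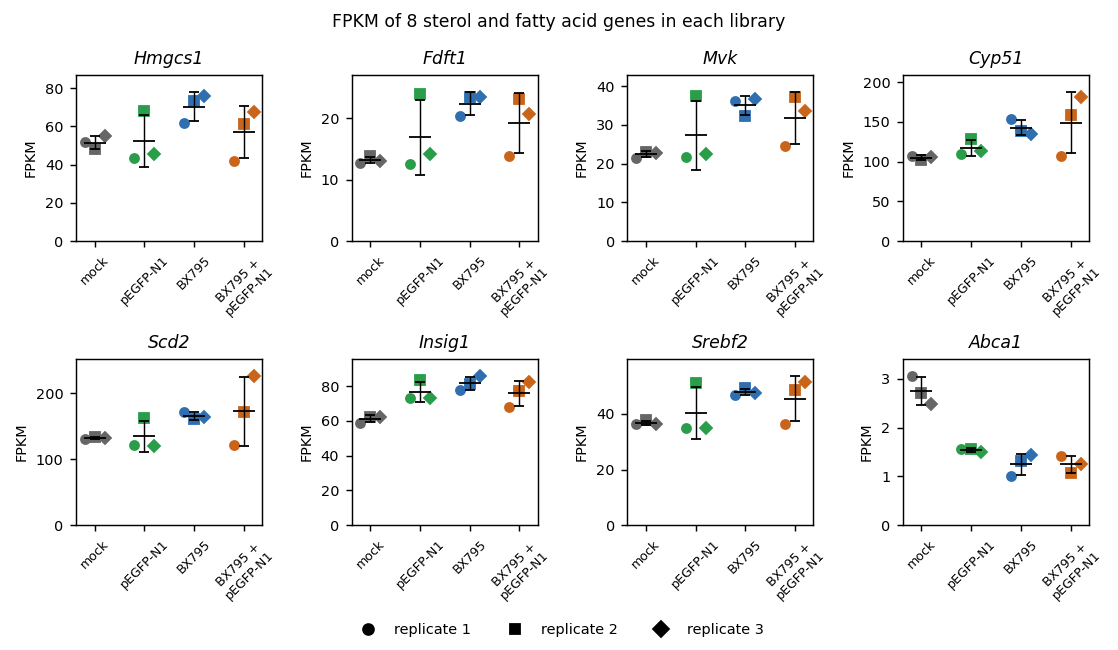
FPKM of 8 genes in each library by labelled group, with replicates 1 to 3 as circles, squares and diamonds and bars of mean ± SD (n = 3). In Fdft1 the pEGFP-N1 libraries had 12.5, 23.9 and 14.1 FPKM and the BX795 plus pEGFP-N1 libraries 13.8, 23.1 and 20.7, so 1 library of each group stood apart from its group.

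Read library by library, the sterol enzymes fell into 2 levels across the transfected libraries. The median deviation of the 17 sterol enzymes from the mock mean was 0.54, 0.50 and 0.50 in BX795 replicates 1 to 3. With pEGFP-N1 it was -0.04, 0.40 and 0.02, and with BX795 plus pEGFP-N1 0.06, 0.58 and 0.57. The libraries near 0 (pEGFP-N1 replicates 1 and 3 and BX795 plus pEGFP-N1 replicate 1) were the ones with high Ifit1, in which the median deviation of the interferon-stimulated genes was 6.41, 6.38 and 6.38. In the other transfected libraries it was -0.26, 0.32 and 1.17. This split was part of how the genes were chosen, so no test is drawn from it here or where the same libraries remain below.

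Counts per library showed the same levels. Of the 31 genes, 26, 26 and 25 lay above all 3 mock libraries in BX795 replicates 1 to 3, beside 37.9%, 45.1% and 45.3% of all genes. With pEGFP-N1 the counts were 11, 25 and 11, beside 30.5%, 45% and 29.1%. With BX795 plus pEGFP-N1 they were 12, 26 and 24, beside 30.8%, 38.1% and 44.2%. Genes below all 3 mock libraries numbered 14, 4 and 11 with pEGFP-N1, beside 40%, 34.1% and 41.9% of all genes. They numbered 1, 3 and 4 in the BX795 libraries, beside 31.3%, 32.3% and 32.7%, and 9, 2 and 4 after inhibitor and plasmid, beside 39.5%, 32.8% and 38%. Fibroblast markers differed between libraries too: the median over the 7 markers of the log2 deviation from mock was -0.27, 0.09 and -0.27 in the pEGFP-N1 libraries and -0.23, -0.02 and 0.03 in those with BX795 plus pEGFP-N1. In the BX795 libraries it was 0.16, 0.09 and 0.11. Of the 7 markers, Col1a1, Col3a1 and Pdgfrb were separate above mock there, by 0.30, 0.34 and 0.29, beside 23.6% of all genes. S100a4 and Fn1, at 0.05 and 0.06, and Col1a2 and Vim, at -0.04 and -0.06, overlapped with mock. The part of these markers in the result was not tested.

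**Figure D4:**
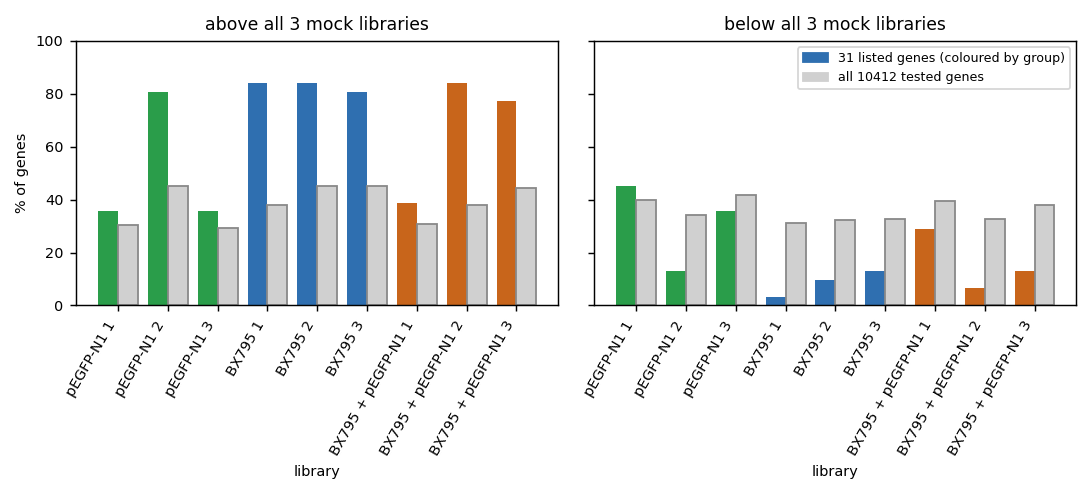
Share of genes above (left) or below (right) all 3 mock libraries in each of 9 libraries, as bars for the 31 genes (coloured by group) and for all 10412 tested genes (grey). The left bars stand at 35.5%, 80.6% and 35.5% with pEGFP-N1, and at 38.7%, 83.9% and 77.4% with BX795 plus pEGFP-N1.

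Single genes departed from these levels. Scd2 had 121, 162 and 120.3 FPKM with pEGFP-N1 and 121, 172 and 225 with BX795 plus pEGFP-N1, so BX795 plus pEGFP-N1 replicate 3 was the highest of all 12 libraries. The same library was highest for Cyp51 (181 FPKM), Msmo1 (94.8), Hsd17b7 (8.27), Scd1 (79.5) and Elovl6 (23.0), and lowest for Nr1h3 (10.2). It also had the lowest summed FPKM, and the part of that was not tested. In the 3 transfected libraries with high Ifit1, Scd1 was below mock, at 44.9, 45.8 and 45.5 FPKM, and so was Hmgcs1, at 43.3, 45.5 and 41.8. Fasn went the other way in them, at 77.9, 87.7 and 81.3 FPKM against 66.6 to 73.5 in mock. Fasn was also above mock in BX795 replicate 1 (76.4) and in BX795 plus pEGFP-N1 replicate 3 (83.4), a library with low Ifit1 in which Acaca, at 23.0, was the highest of all 12. In pEGFP-N1 replicate 2 Fasn was at 63.5 and Acaca at 13.0 FPKM, both below mock. Fasn was below mock in BX795 replicates 2 and 3 as well, at 66.4 and 60.2 FPKM, the latter the lowest of all 12.

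The plasmid without inhibitor was tested by pEGFP-N1 against mock, a comparison the list was not chosen on, though its mock libraries and its pEGFP-N1 libraries each entered a difference that chose the genes, so its p-values are not independent of the choice. At an adjusted p under 0.05 (limma) 0 of 31 genes passed, beside 0.0672% of all genes, and also 0 when only these groups were fitted, beside 0.0384%. At an unadjusted p under 0.05, 2 passed, Insig1 and Abca1, beside 4.69% of all genes. All pEGFP-N1 libraries were above mock in 6 genes (Insig1, Msmo1, Cyp51, Pmvk, Lss and Fads1), beside 5.52% of all genes, and all were below mock in 2 (Abca1 and Sc5d), beside 7.41%. The median difference was 0.11, beside -0.00257 over all genes, with 24 of 31 genes higher. It rested on the library that went against its label: without pEGFP-N1 replicate 2 the median was 0.01, beside -0.02 over all genes, and 17 of 31 were higher.

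Insig1 and Abca1 stood apart from mock in all 3 pEGFP-N1 libraries whatever their Ifit1. Insig1 had 73.4, 83.5 and 73.1 FPKM against at most 62.3 in mock, a log2 difference of 0.32 (SE 0.08, 95% interval 0.15 to 0.49, limma adjusted p = 0.466). Abca1 had 1.56, 1.57 and 1.5 FPKM against at least 2.49 in mock, a log2 difference of -0.56 (SE 0.10, 95% interval -0.78 to -0.33, limma adjusted p = 0.176). Two-sided exact permutation tests gave p = 0.1 for each, the smallest that 3 against 3 allows. Without the libraries that went against their labels, the differences were 0.26 and -0.56, with an adjusted p (limma) of 0.0351 for Insig1 and 0.0152 for Abca1, so these 2 of the 31 stood under 0.05, beside 3.76% of all genes. That fit sets libraries with high Ifit1 against mock, both used in choosing the genes, and its p-values are a description. Fdft1 and Hmgcs1 had wider intervals: Fdft1 differed from mock by 0.28 with a 95% interval of -0.19 to 0.74, and Hmgcs1 by -0.01 with an interval of -0.42 to 0.40. Without the 2 libraries the difference was 0.01 for Fdft1 (-0.17 to 0.19) and -0.21 for Hmgcs1 (-0.41 to -0.01, limma adjusted p = 0.235).

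With inhibitor present, the plasmid was compared by BX795 plus pEGFP-N1 against BX795. Libraries of both groups also entered the differences the genes were chosen on, so these p-values are not independent of the choice. Here 0 of 31 genes passed an adjusted p under 0.05 (limma), beside 0% of all genes, and 1 did so unadjusted, Nr1h3, beside 5.56%. This gene had 12.1, 12.5 and 10.2 FPKM, all under the 12.7, 15.3 and 14.5 of BX795 alone, and was the only gene of the 31 whose groups did not overlap, beside 6.66% of all genes below. Its log2 difference was -0.27 (SE 0.11, 95% interval -0.50 to -0.04, limma adjusted p = 0.604, exact permutation p = 0.1), and -0.30 without the 2 libraries that went against their labels. Abca1 had 1.42, 1.07 and 1.26 FPKM, within the range of BX795 alone (difference 0.00164, 95% interval -0.22 to 0.23), while Abcg1, untested at its low level, had 0.23, 0.28 and 0.23 against at least 0.37 with BX795. The median over the 31 genes was -0.06, beside -0.02 over all genes, with 9 of 31 higher. Its direction rested on 1 library: without BX795 plus pEGFP-N1 replicate 1 the median was 0.06, beside -0.01, and 19 of 31 were higher.

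The inhibitor in transfected cells was compared by BX795 plus pEGFP-N1 against pEGFP-N1. By label, 26 of 31 genes were higher, but 0 passed an adjusted p under 0.05 (limma), beside 0% of all genes, and 2 did so unadjusted, Nsdhl upward and Nr1h3 downward, beside 1.59%. The unadjusted count hung on single libraries. As a description, it was 16 without pEGFP-N1 replicate 2 (1268 of all 10412 genes) and 17 without BX795 plus pEGFP-N1 replicate 1 (1710 of all). In 0 of 31 genes did every library with inhibitor lie above every library without, beside 1.39% of all genes, and in 1, Abca1, did every library lie below (difference -0.18, SE 0.10), beside 1.41%. The median difference was 0.20, beside 0.01. Pmvk shows the overlap: 25.3, 37.9 and 25.2 FPKM with plasmid alone and 26.8, 44.9 and 37.0 with both, for a difference of 0.29 with a 95% interval of -0.11 to 0.68.

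Leaving out pEGFP-N1 replicate 2 and BX795 plus pEGFP-N1 replicate 1 changed this comparison. The libraries that remain are divided as in the choice of the genes, so the values are a description and the count is no test. Then 18 of 31 genes stood at an adjusted p under 0.05 (limma), beside 18.1% of all genes, and the median difference was 0.49, beside 0.04 over all genes. Nsdhl, with 20.7 and 20.4 FPKM in the remaining pEGFP-N1 libraries and 35.21 and 35.01 in the others, differed by 0.75 (SE 0.08). Scd2 differed by 0.70 (SE 0.10) and Srebf2 by 0.50 (SE 0.06), and their values with BX795 alone against mock were 0.32 and 0.37. For Insig1, 73.4 and 73.1 FPKM against 77.2 and 82.3, the difference was 0.12 (95% interval -0.02 to 0.26). Abca1 differed by -0.23 (95% interval -0.49 to 0.04).

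**Figure D5:**
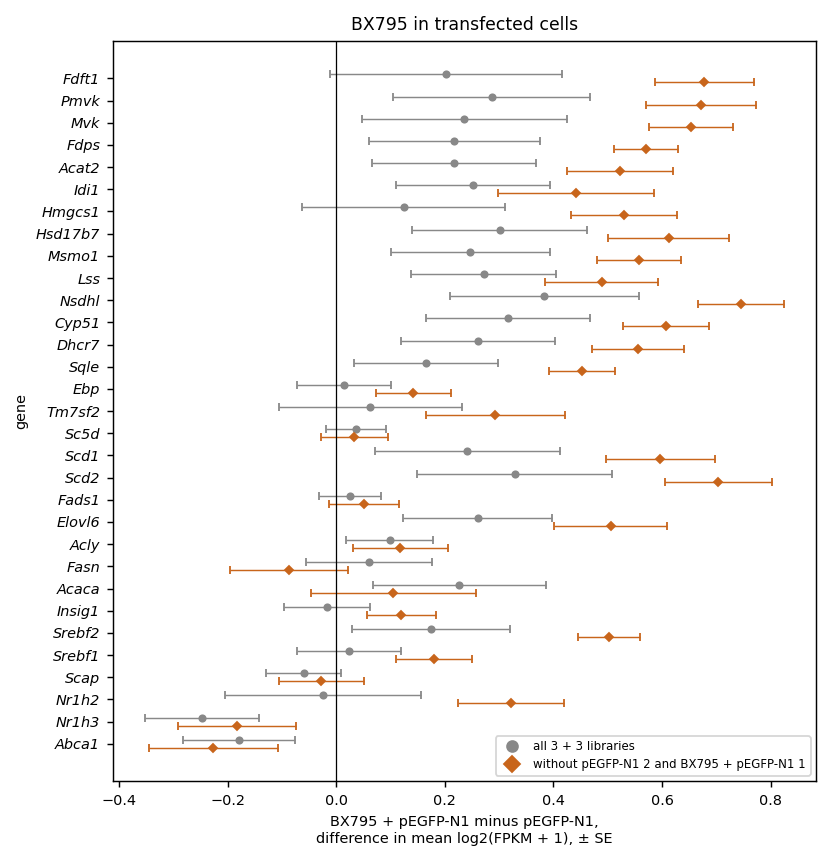
Difference in mean log2(FPKM + 1) for 31 genes, inhibitor with plasmid minus plasmid alone, ± SE, with all libraries (grey circles) and without pEGFP-N1 replicate 2 and BX795 plus pEGFP-N1 replicate 1 (orange diamonds). Nsdhl moves from 0.38 to 0.75 and Fdft1 from 0.20 to 0.68, while Insig1 stays near 0 at -0.02 and 0.12.

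Other genes of the pathway were taken from lists of 32 genes, of which 30 were tested. With BX795 alone 9 of 30 were separate above mock, beside 23.6% of all genes, and 3 below, beside 16.2%. At an adjusted p under 0.05 (limma) 0 passed, beside 0.0672%, and at an unadjusted p under 0.05 7 did, beside 13.8%. When only these groups were fitted 10 of 30 passed, beside 20.6%, and without the 2 libraries that went against their labels 8, beside 14.1%. The median difference was 0.01, beside 0.03. The 3 with the largest difference were lipid enzymes, 16 of which were tested with a median of 0.08. Acss2, which makes acetyl-CoA from acetate, had 3.84, 3.73 and 4.10 FPKM in mock, then 4.19, 5.60 and 4.06 in the pEGFP-N1 libraries, 7.97, 5.59 and 5.72 in the BX795 libraries, and 4, 8.99 and 7.6 in those that received inhibitor and plasmid. Pcyt2, of phosphatidylethanolamine synthesis, had 30.1, 30.6 and 29.4, then 28.8, 43.4 and 31.04, then 44.3, 42.0 and 43.0, then 32.9, 43.0 and 40.8 FPKM in the same order. Rdh11, a retinol dehydrogenase, had 22.3, 20.3 and 22.6 in mock and 29.3, 27.9 and 26.8 with BX795. In all 3 genes pEGFP-N1 replicate 2 was the highest of its group and BX795 plus pEGFP-N1 replicate 1 the lowest of its own. Of the 8 genes of SREBP processing and sterol-regulated degradation, Mbtps1, a protease that cuts SREBP, differed by 0.28 with BX795 (SE 0.13) and Mbtps2, the other protease, by -0.13 (SE 0.08). Of 3 tested LXR targets, 0 were separate above mock and 1 below, Lpcat3, a phospholipid acyltransferase, with 77.8, 75.4 and 74.01 FPKM in mock and 68.7, 68.9 and 72.7 with BX795.

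Whether the plasmid effect differed with the inhibitor was fitted as an interaction. It contains the difference between BX795 and mock on which the genes were chosen, so its values are a description. At an adjusted p under 0.05 stood 0 of 31 genes, beside 0% of all genes, and also 0 without the libraries that went against their labels, beside 1.27%. At an unadjusted p under 0.05, stood 3.91% of all genes and 3 of the 31, namely Nr1h3, Insig1 and Abca1. Abca1 had the largest interaction of the 31, 0.56 (SE 0.15), since it was lower with plasmid than in mock but had a mean FPKM of 1.25 with and without plasmid under BX795. Insig1 had an interaction of -0.43 (SE 0.11). Without the 2 libraries the interactions were 0.51 for Abca1 (SE 0.15), -0.29 for Insig1 (SE 0.08) and -0.39 for Nr1h3 (SE 0.14).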

How the data were processed

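RNA-seq of L929 cells was analysed from 1 table. The values the authors deposited are FPKM per gene, rounded to 2 decimals. Reads from a BGISEQ-500 were aligned by the authors with Bowtie2 2.2.5 (up to 200 alignments per read) and quantified with RSEM 1.2.12; the annotation is not given in the sources used here. Of 17571 identifiers, 17450 matched a RefSeq symbol. From these values, log2(FPKM + 1) was fitted with limma 3.58.1 (R 4.3.3; 4 group means, trend) over the 10412 genes that reached an FPKM of 1 in 3 or more libraries, with Benjamini-Hochberg adjustment over all of them and a threshold of 0.05; this scale understates changes of low genes. Single genes were compared by exact permutation tests. Scripts were checked on simulated data. Figures and summaries used Python 3.11.15. The members and lists were chosen with earlier results of these data known. Given library by library were the regulators and, per role, the 3 genes with the largest difference in BX795 minus mock and in BX795 plus pEGFP-N1 minus pEGFP-N1, and the 3 such pathway genes; other names, such as Hmgcs1, Fasn and Acaca, were added after their values were seen. Alternatives were another pseudocount (0.1), no filter or a mean FPKM of at least 5, TPM, 75th percentile and quantile scaling, no trend, only the groups compared, a replicate block, each library left out, 2 libraries left out, and the thresholds of the study's methods.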

Additional observations from a re-analysis of the deposited data

Results flagged for a closer look

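Nr1h3 (LXR alpha) was picked out because its plasmid effect pointed opposite ways with and without BX795: all 3 pEGFP-N1 libraries (13.6, 16.0 and 12.4 FPKM) lay above the mock mean of 12.1, and all 3 BX795 plus pEGFP-N1 libraries (12.1, 12.5 and 10.2) lay below the BX795 mean of 14.2. The interaction was -0.45 on the log2(FPKM + 1) scale (SE 0.15) and did not pass the test over all genes (limma adjusted p = 0.842). Without the 2 libraries that went against their labels it was -0.39 (SE 0.14, limma adjusted p = 0.423).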

How the results depend on the processing

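No gene past the threshold changed direction in the alternatives run, while the medians of the interaction and of BX795 plus pEGFP-N1 minus BX795 changed sign where given here. For BX795 minus mock, 1 of 31 genes passed, and 0 did with a mean FPKM of at least 5, which removed Abca1, with the replicate block or at the study's thresholds (false discovery rate 0.001, log2 fold change 2); 21 passed with only the groups compared and with 2 libraries left out, and between 0 and 6 with single libraries left out, 4 without pEGFP-N1 replicate 2 (149 of all 10412 genes) and 6 without BX795 plus pEGFP-N1 replicate 1 (82 of all genes), where 7 of all genes passed with every library. Abca1 was lost in 8 of those 12 fits, each library of mock and BX795 and pEGFP-N1 replicates 1 and 3 (adjusted p 0.0525 to 0.202); over all alternatives its adjusted p ran from 0.000852 to 0.202. Without a filter the median of this comparison was 0.33. With the same 2 libraries left out, 2 genes passed for pEGFP-N1 minus mock, and for BX795 plus pEGFP-N1 minus pEGFP-N1 18 passed with a median of 0.49; the interaction median was 0.051 against -0.17. Leaving out single libraries moved the median between 0.01 (without pEGFP-N1 replicate 2) and 0.16 for pEGFP-N1 minus mock, between -0.12 and 0.06 for BX795 plus pEGFP-N1 minus BX795 and between 0.08 and 0.34 for BX795 plus pEGFP-N1 minus pEGFP-N1, and that of the interaction between -0.28 (without BX795 plus pEGFP-N1 replicate 3) and -0.06 (without BX795 plus pEGFP-N1 replicate 1). The causes were not tested. The interaction uses all groups, so it has no fit of only the groups compared.

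The labels do not say whether same-numbered libraries share more than a number. The correlation of their deviations from the group means, across genes, was between -0.39 and 0.64 over the 18 pairs. Averaged within each pair of groups it ran from 0.02 to 0.35, against -0.20 to -0.01 for libraries of unlike number. The libraries that went against their labels enter these values, and whether libraries were paired was not tested. With the replicate block the adjusted p of Abca1 was 0.065. The depth behind FPKM is unknown, so no counting error is given.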
